A study of Rattus norvegicus with 12 samples.

Results

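Genes of junctions, surface barrier and transcriptional control in the urothelium, the epithelium that lines the urinary bladder, were followed in rat bladder after surgical denervation. The list holds 35 genes: claudins and other tight junction genes, adherens junction and desmosome genes, genes of the cell envelope and of apical membrane traffic, the surface protease St14, the splicing factors Esrp1 and Esrp2, and transcription factors. A gene was measured through the probe sets that the array annotation assigns to it alone, and 32 of the 35 were measured, among 18166 genes in all. Tp63 is listed under its older symbol Trp63. Dsp, Snx31 and Sfn were not analysed here, and the probe set of Sfn is also assigned to Sfnl1. The tissue was whole bladder of female Sprague Dawley rats aged about 3 months, and both groups had surgery. In the 6 denervated samples the pelvic ganglia were also frozen on both sides, and tissue was taken 10 days later. The other 6 samples are sham controls, whose time after surgery the labels do not give separately. Nothing in the labels says outright that the samples came from separate animals, so p-values measure the spread between these samples, which may be technical. Values are log2 expression values, 1 array per sample, and a change is the denervated mean minus the sham mean in log2 units.

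The urothelium is a stratified epithelium with basal, intermediate and superficial umbrella cells. Umbrella cells carry uroplakin plaques on their apical surface, add membrane from vesicles as the bladder fills, and seal the gaps between cells with tight junctions built from claudins and occludin. Desmosomes and adherens junctions hold the layers together, and transcription factors of the grainyhead, forkhead, GATA, ETS and p63 families are known for roles in epithelial or urothelial identity and maturation.

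In a limma fit over all genes with Benjamini-Hochberg adjustment (adjusted p under 0.05), 3063 of 18166 genes were lower in denervated bladder (16.9%) and 2153 were higher (11.9%). Array medians lay between 5.82 and 5.90. The leading principal component held 58.0% of the variance, and on it denervated replicate 2 lay at -5.84, the other denervated arrays between 25.9 and 42.5 and the sham arrays between -30.2 and -22.5. The labels describe the tissue as mostly smooth muscle, yet the uroplakins Upk1a, Upk1b, Upk2 and Upk3a had sham means of 12.72, 12.46, 12.63 and 12.44, far above the array medians, so urothelial RNA was present. Fewer cells of a type and less RNA per cell cannot be told apart in whole tissue. Of the marker lists for other cells, 5 of 8 smooth muscle genes were lower and 1 higher (median change -0.36), 7 of 7 macrophage genes were higher (1.39), 5 of 6 endothelial genes were higher (0.85), 4 of 8 fibroblast genes were higher (0.39) and 5 of 5 Schwann cell genes were lower (-0.84). Of 6 mesothelial genes, 1 was higher and 1 lower (median -0.00). The part of these shifts in the results on urothelial genes was not tested.

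The urothelial genes were lower in denervated bladder as a group, and none of them was higher. Their list was chosen with earlier results of these data known, so the counts are not an independent test. Of the 32 measured, 22 fell (68.8%, beside 16.9% of all genes), 0 rose and 10 did not pass the test in either direction. The denervated mean lay below the sham mean for 32 of 32, compared with 57.4% of all genes. The median change was -0.39, compared with -0.04 over all genes, and single changes ran from -0.88 for Grhl3 to -0.04 for Pkp3 and Cldn3. Among the genes that fell, the decrease ran from 1.15-fold to 1.84-fold, and 7 fell by 1.5-fold or more: Grhl3, Psca, Rab27b, Cldn8, Ppl, Evpl and Epcam. For 13 of the 32 (40.6%) every denervated array lay below every sham array. Groups that do not overlap, in either direction, were found for 13.3% of all genes. By brightness, 28 of the 32 lay above the median gene and 21 of these fell, and 25.9% of all 9083 genes above it were lower, with a median change of -0.07. When changes had to exceed 1.2-fold (limma treat), 5 of the 22 calls were kept: Cldn8, Ppl, Rab27b, Psca and Grhl3. Over all genes, the same test called 496 lower, beside 3063 in the main fit.

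**Figure D1:**
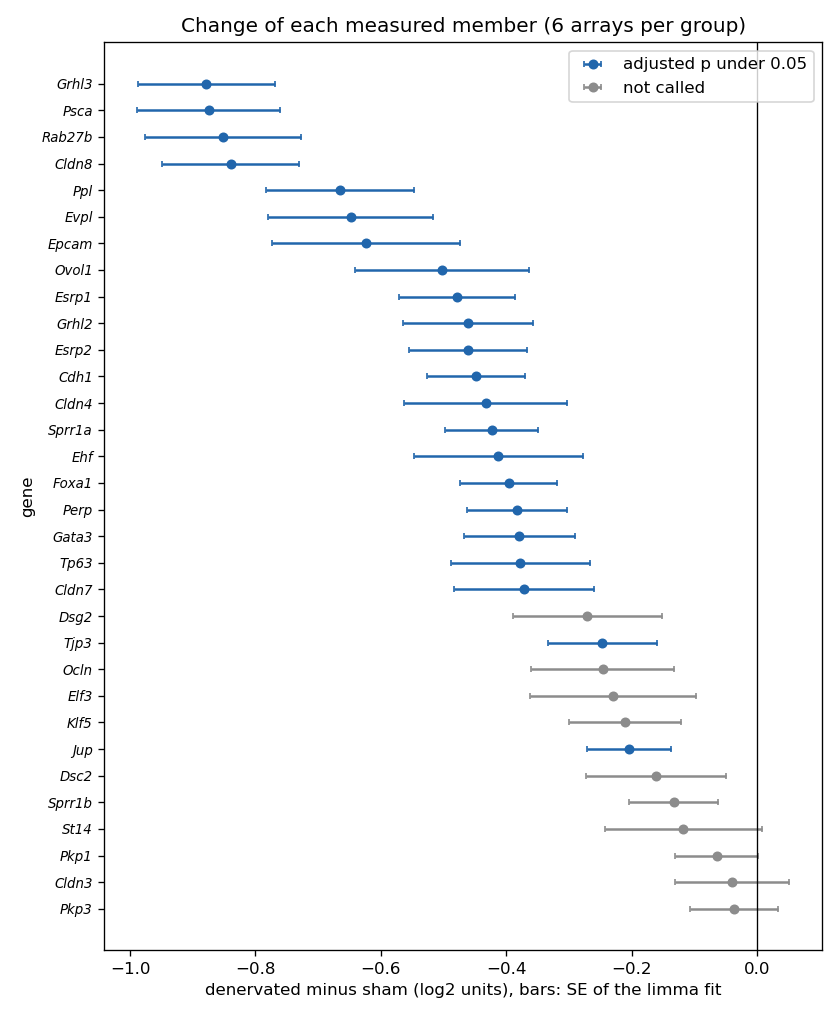
Change of each of the 32 measured genes, denervated minus sham in log2 units, with bars for the standard error of the limma fit (6 arrays per group). Every point lies left of 0, with Grhl3 at -0.88, Psca at -0.87, Rab27b at -0.85 and Cldn8 at -0.84 farthest from it, and the grey points are the 10 genes that did not pass the adjusted p of 0.05.

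Claudins are the membrane proteins that form the paracellular seal of tight junctions and set which ions pass through it. Of the 4 claudins on the list, Cldn8, a claudin of tight epithelia, had the largest change. Its sham values ran from 9.20 through a median of 9.56 to 9.69, and its denervated values from 8.35 through 8.69 to 8.99. The groups did not overlap, and Cldn8 fell by 0.84 ± 0.11 (SE, n = 6 per group, limma adjusted p = 0.000223), which is 1.79-fold. Cldn4, a barrier-forming claudin abundant in umbrella cells, ranged from 9.39 to 9.80 in sham arrays (median 9.50) and from 8.64 to 9.50 in denervated arrays (median 9.07). Denervated replicates 2 and 6, at the top of that range, lay among the sham values, and Cldn4 fell by 0.43 ± 0.13 (limma adjusted p = 0.0235). Cldn7, a claudin found along the lateral membrane as well as in tight junctions, ranged from 7.48 to 8.11 (median 7.66) and from 7.08 to 7.56 (median 7.33). Its groups overlapped, and it fell by 0.37 ± 0.11 (limma adjusted p = 0.0231). These calls rest on single arrays in part: Cldn4 did not pass without sham replicate 2 (adjusted p = 0.0560) or without denervated replicate 4 (0.0530), and Cldn7 did not pass without denervated replicate 3 (0.0518) or denervated replicate 5 (0.0526). Cldn3, another barrier-forming claudin, ranged from 5.49 to 6.04 in sham arrays (median 5.57) and from 5.52 to 5.73 in denervated arrays (median 5.60). Its denervated arrays all lay within the sham range, and its sham mean of 5.66 was below every array median. The difference of -0.04 ± 0.09 was not called (limma adjusted p = 0.791), and its sign turned without sham replicate 1 (0.036).

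Within each array, the log2 ratio of 2 claudins was compared between the groups by a two-sided exact permutation test over samples, with adjustment over 13 pairs of related genes tested in all. The change of Cldn8 was more negative than that of Cldn4 by 0.41 ± 0.08, than that of Cldn7 by 0.47 ± 0.10 and than that of Cldn3 by 0.80 ± 0.14 (each exact permutation p = 0.00216, the smallest that 924 arrangements allow, adjusted p = 0.00938). Cldn3 was at a brightness below the array medians, where a fall may not show in the signal, so a difference from it is no measure of how much its RNA changed. Cldn4 and Cldn7 differed by -0.06 ± 0.09 (permutation, adjusted p = 0.681). The pairs Cldn3 and Cldn4 (0.39 ± 0.17, adjusted p = 0.117) and Cldn3 and Cldn7 (0.33 ± 0.17, adjusted p = 0.129) did not pass the permutation test. Both passed it without sham replicate 1, the highest array for Cldn3, at 0.48 (permutation, adjusted p = 0.0482) and 0.45 (adjusted p = 0.0141), and the 5 pairs called over all 12 arrays were called in each of the 12 runs that leave out an array.

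**Figure D2:**
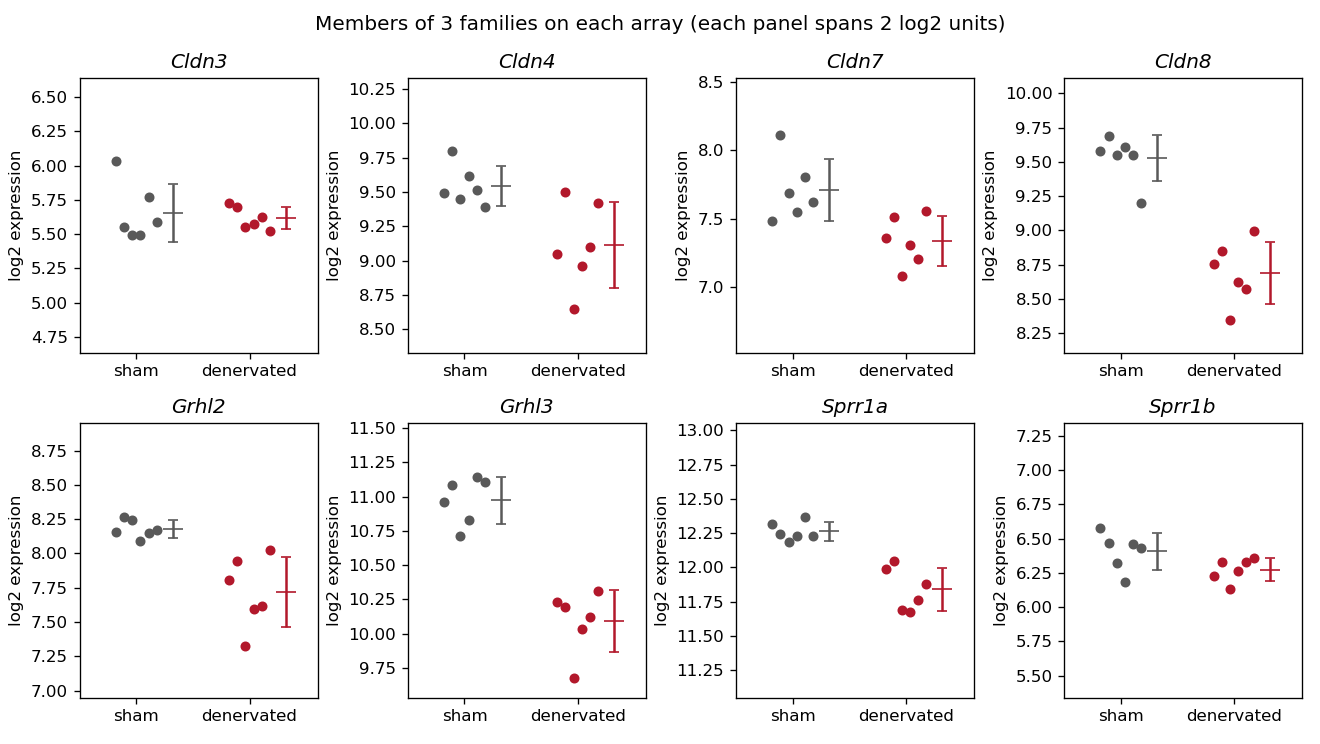
Log2 expression on each of the 12 arrays for the claudins, the grainyhead factors and the Sprr1 genes, with the mean and SD of each group beside the points; each panel spans 2 log2 units so that changes can be compared by eye. The denervated points of Cldn8, Grhl2, Grhl3 and Sprr1a lie wholly below their sham points, whereas those of Cldn3 lie within the sham range.

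The promoters of 3 claudins and of Grhl3 are printed because these genes run from no called change to the largest decrease among the 32. They come from RefSeq (GRCr8), run 5′ to 3′ on the gene's strand from 250 bases before to 50 bases after its start, and lie at chr12:27346498-27346797 (minus strand, Cldn3), chr10:55188420-55188719 (plus strand, Cldn7), chr11:41364281-41364580 (minus strand, Cldn8) and chr5:153089841-153090140 (minus strand, Grhl3). Capitals mark a KLF motif in Cldn3 and an ETS motif in Cldn7, each read on the opposite strand.
Cldn3: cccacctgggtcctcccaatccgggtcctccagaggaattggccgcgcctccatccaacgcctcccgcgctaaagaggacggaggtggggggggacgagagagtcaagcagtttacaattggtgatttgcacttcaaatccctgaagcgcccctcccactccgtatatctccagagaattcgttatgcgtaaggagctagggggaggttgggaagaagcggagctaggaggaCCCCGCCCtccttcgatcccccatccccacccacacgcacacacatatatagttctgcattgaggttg
Cldn7: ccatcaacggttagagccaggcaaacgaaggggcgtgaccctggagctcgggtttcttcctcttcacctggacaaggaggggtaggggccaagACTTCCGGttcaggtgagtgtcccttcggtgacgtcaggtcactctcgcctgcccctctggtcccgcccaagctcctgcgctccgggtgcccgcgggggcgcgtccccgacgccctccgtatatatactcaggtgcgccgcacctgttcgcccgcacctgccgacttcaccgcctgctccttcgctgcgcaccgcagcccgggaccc
Cldn8: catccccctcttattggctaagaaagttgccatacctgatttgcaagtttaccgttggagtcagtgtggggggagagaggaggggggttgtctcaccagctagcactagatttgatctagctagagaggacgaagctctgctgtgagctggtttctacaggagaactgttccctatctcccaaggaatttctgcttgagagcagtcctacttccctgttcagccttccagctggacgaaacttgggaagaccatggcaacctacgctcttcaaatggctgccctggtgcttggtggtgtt
Grhl3: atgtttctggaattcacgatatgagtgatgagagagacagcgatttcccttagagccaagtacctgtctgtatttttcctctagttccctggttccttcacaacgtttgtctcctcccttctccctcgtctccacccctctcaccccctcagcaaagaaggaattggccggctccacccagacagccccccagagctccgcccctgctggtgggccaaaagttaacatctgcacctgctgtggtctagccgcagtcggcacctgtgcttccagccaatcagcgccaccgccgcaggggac
No searched motif stands in the windows of Cldn8 and Grhl3.

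A search of both strands covered 5 short motifs: AACCGGTT for grainyhead factors, AGATAA for GATA factors, TGTTTAC for forkhead factors, CCGGAAGT for ETS factors and GGGCGGGG for KLF and related factors. RefSeq promoters were given for 20 of the 32 measured genes, 12 of which fell and 8 of which did not pass. The KLF motif was in 8 of the 20 (40.0%, compared with 15.2% of the 33469 rat promoters of the table), namely Epcam, Tjp3, Ppl, Jup, Cldn3, Pkp1, Dsc2 and Dsg2, of which 4 fell and 4 were not called. The ETS motif was in Cldn7 alone of the 20 (3.81% of all promoters) and the forkhead motif in Sprr1b alone (3.78%). The grainyhead and GATA motifs were in 0 of the 20, compared with 0.173% and 11.6% of all promoters. The 20 hold a single promoter per gene, whereas the 33469 were counted without reduction to a single promoter per gene. The shares are therefore not strictly comparable, and their differences were not tested. A match describes letters in a window of 300 bases and is not a binding site.

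Among the other tight junction genes, Tjp3, a scaffold that ties claudins to the cytoskeleton, ranged from 6.89 to 7.28 in sham arrays (median 7.18) and from 6.71 to 7.09 in denervated arrays (median 6.91). The groups overlapped, and Tjp3 was called lower by a small margin, at -0.25 ± 0.09 (limma adjusted p = 0.0483). The call was lost in 9 of the 12 fits that leave out an array, with an adjusted p of up to 0.105, and held without sham replicate 1 or without denervated replicate 2 or 6. Ocln encodes occludin, a membrane protein of the tight junction. It ranged from 8.58 to 8.90 (median 8.62) in sham arrays and from 8.04 to 8.84 (median 8.39) in denervated arrays, and its difference of -0.25 ± 0.11 was not called (limma adjusted p = 0.127), although it passed with array weights (0.0224) and without denervated replicate 6 (0.0218). In a wider tight junction and polarity list outside the 32, 16 of 29 fell and 0 rose (all genes 16.9% and 11.9%). The median change of that list was -0.28. The largest decreases there were those of Cldn23 (-0.88 ± 0.13), of Cldn1 (-0.69 ± 0.18), a claudin of basal and intermediate layers in many epithelia, of the polarity kinase Prkcz (-0.58 ± 0.10) and of Ildr1 (-0.56 ± 0.09), a protein of junctions where 3 cells meet.

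Both genes of cell adhesion at the lateral membrane fell. Cdh1, which encodes E-cadherin, the adhesion receptor of adherens junctions, ranged from 10.31 to 10.45 in sham arrays (median 10.37) and from 9.64 to 10.17 in denervated arrays (median 9.94). The sham arrays were close together (SD 0.05), the groups did not overlap, and Cdh1 fell by 0.45 ± 0.08 (limma adjusted p = 0.00113). Epcam, an epithelial adhesion protein that binds claudins, ranged from 10.41 to 10.79 in sham arrays (median 10.62) and from 9.43 to 10.55 in denervated arrays (median 9.97). It had the widest spread of the 32 genes in denervated arrays (SD 0.37), with replicate 3 lowest and replicate 2 within the sham range, and it fell by 0.62 ± 0.15 (limma adjusted p = 0.00733).

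Of the 6 desmosome genes, 2 fell and 4 were not called. Of all genes 16.9% were lower, and of those brighter than the median gene 25.9%. Whether the 6 genes differ from these shares was not tested. Perp, a membrane protein needed for desmosome assembly in stratified epithelia, ranged from 10.70 to 10.88 in sham arrays (median 10.85) and from 10.22 to 10.70 in denervated arrays (median 10.43). Its groups were only just apart (lowest sham value 10.705, highest denervated value 10.701), and it fell by 0.38 ± 0.08 (limma adjusted p = 0.00331). Jup encodes plakoglobin, which links desmosomal and classical cadherins to the cytoskeleton. It ranged from 10.11 to 10.30 (median 10.21) in sham arrays and from 9.85 to 10.17 (median 9.98) in denervated arrays. It fell by 0.20 ± 0.07 (limma adjusted p = 0.0349), and the call was lost in 7 of the 12 fits that leave out an array (adjusted p of up to 0.0754; without any of sham replicates 2 to 5 or of denervated replicates 3, 4 and 6) and with replicate number as a block (0.0937). The desmosomal cadherins Dsg2 (-0.27 ± 0.12, adjusted p = 0.110) and Dsc2 (-0.16 ± 0.11, adjusted p = 0.317) and the plakophilins Pkp1 (-0.06 ± 0.07, adjusted p = 0.521) and Pkp3 (-0.04 ± 0.07, adjusted p = 0.751) were not called by limma, and the denervated range of each overlapped the sham range. Within arrays, the changes of Dsg2 and Dsc2 differed by -0.11 ± 0.11 and those of Pkp1 and Pkp3 by -0.03 ± 0.08, and neither pair passed the permutation test (adjusted p = 0.481 and 0.778).

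In the wider list of adherens junction and desmosome genes, 3 of 14 fell and 1 rose, near the 16.9% and 11.9% of all genes. The median change of the list was -0.07. Nectin4 (-0.38 ± 0.11) and Nectin3 (-0.28 ± 0.07), adhesion receptors of adherens junctions, and Ctnna1 (-0.17 ± 0.05), which encodes the alpha-catenin of epithelia, were lower. The gene that rose was Dsg3, the desmosomal cadherin of basal cells in stratified epithelia. Its sham values ran from 4.24 through 4.40 to 4.64 and its denervated values from 4.86 through 5.56 to 7.14. Its groups did not overlap, although its sham values lay below the array medians, and the change of 1.23 ± 0.31 was called (limma adjusted p = 0.00890, and at most 0.0219 when any array was left out). Of the genes that anchor the epithelium to its basement membrane, 3 of 7 fell and 0 rose: Itgb4 (-0.43 ± 0.09), Lama3 (-0.32 ± 0.09) and Col17a1 (-0.29 ± 0.10), the last of which kept its call in 3 of the 12 fits that leave out an array (without sham replicate 1 or denervated replicate 1 or 2).

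Of the 4 genes of the cell envelope, 3 fell, and all 3 were without overlap. Of all genes 16.9% were lower, and 13.3% were without overlap in either direction. Ppl encodes periplakin and Evpl envoplakin, plakins that connect intermediate filaments to desmosomes and to the envelope. Ppl ranged from 8.53 to 8.90 in sham arrays (median 8.74) and from 7.61 to 8.31 in denervated arrays (median 8.20), a decrease of 0.67 ± 0.12 (limma adjusted p = 0.00123). Evpl ranged from 8.70 to 9.04 (median 8.95) and from 7.66 to 8.55 (median 8.31), a decrease of 0.65 ± 0.13 (limma adjusted p = 0.00279). The changes of these partners differed by -0.02 ± 0.07 within arrays (permutation, adjusted p = 0.820), and denervated replicate 3 was the lowest array for both. Sprr1a, which encodes a small proline-rich precursor of the envelope, had sham values of 12.19 to 12.37 (median 12.24) and denervated values of 11.67 to 12.04 (median 11.82), without overlap. It fell by 0.42 ± 0.07 (limma adjusted p = 0.00115). Its paralogue Sprr1b lay at 6.18 to 6.58 (median 6.45) and 6.13 to 6.36 (median 6.30), and was not called (-0.13 ± 0.07, limma adjusted p = 0.190). Within arrays the Sprr1a change was the more negative by 0.29 ± 0.07 (difference -0.29, permutation, adjusted p = 0.0113). Genes of this family are similar in sequence and may share probes, so the split between them is uncertain. Sprr1b was also far dimmer than Sprr1a (sham means 6.41 and 12.26), and a fall of a dim gene may show only in part.

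The 2 genes of apical traffic and surface showed some of the largest decreases. Rab27b encodes a small GTPase that brings uroplakin-bearing vesicles to the apical membrane of umbrella cells. Its sham values ran from 8.86 through 9.20 to 9.30 and its denervated values from 7.94 through 8.26 to 8.65. The groups did not overlap, and Rab27b fell by 0.85 ± 0.12 (limma adjusted p = 0.000424). A second probe set of the gene had means of 9.05 and 8.29, a difference of -0.76. Psca encodes a lipid-anchored surface protein of the urothelium and other epithelia. Its sham values ran from 10.38 through 10.59 to 10.92 and its denervated values from 9.55 through 9.65 to 9.99, and it fell by 0.87 ± 0.11 (limma adjusted p = 0.000225). Replicates 2, 3 and 6 were the lowest denervated arrays for Psca, so its order over arrays was not that of Epcam or Cldn4, in which replicates 2 and 6 were the highest.

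In the wider list of apical vesicle traffic, 9 of 12 genes fell and 1 rose, beside 16.9% and 11.9% of all genes. The median change of the list was -0.42. Sytl5 (-0.73 ± 0.20), a synaptotagmin-like Rab27 effector, the motor gene Myo5b (-0.55 ± 0.11), Mal2 (-0.53 ± 0.14), a membrane protein of transcytosis, and Rab25 (-0.52 ± 0.09), an epithelial Rab of recycling endosomes, led the decreases. Rab8a was called higher (0.21 ± 0.07, limma adjusted p = 0.0455), and it kept the call in 2 of the 12 fits that leave out an array (without denervated replicate 1 or 2). It is named after its value was seen.

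St14 encodes matriptase, a transmembrane serine protease of epithelial surfaces. It ranged from 8.01 to 8.30 in sham arrays (median 8.13) and from 7.62 to 8.52 in denervated arrays (median 8.03), so denervated arrays lay on both sides of the sham range, and its difference of -0.12 ± 0.13 was not called (limma adjusted p = 0.539). In the wider list of cornified envelope and surface protease genes, 5 of 16 fell and 0 rose, beside 16.9% and 11.9% of all genes. The median change of the list was -0.08. The largest decreases were those of the protease genes Tmprss2 (-0.73 ± 0.12) and Prss8 (-0.64 ± 0.11), the envelope gene Scel (-0.63 ± 0.13) and Spint1 (-0.63 ± 0.09), which encodes an inhibitor of matriptase.

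Esrp1 and Esrp2 encode RNA-binding proteins that direct the splicing of epithelial isoforms, and both fell. Esrp1 ranged from 8.49 to 8.75 in sham arrays (median 8.58) and from 7.81 to 8.35 in denervated arrays (median 8.13), without overlap, and fell by 0.48 ± 0.09 (limma adjusted p = 0.00200). Esrp2 ranged from 7.80 to 8.23 (median 8.08) and from 7.35 to 7.85 (median 7.58), with a small overlap, and fell by 0.46 ± 0.09 (limma adjusted p = 0.00288). Within arrays the 2 changes differed by -0.02 ± 0.05 (permutation, adjusted p = 0.778).

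Of the 9 transcription factors measured, 7 fell and 2 were not called, beside 16.9% of all genes lower. Grhl3, a grainyhead factor of terminal differentiation in umbrella cells, had the largest decrease of the 32 genes. Its sham values ran from 10.72 through 11.02 to 11.14 and its denervated values from 9.67 through 10.16 to 10.31, with denervated replicate 3 lowest. Grhl3 fell by 0.88 ± 0.11 (limma adjusted p = 0.000175), which is 1.84-fold. Its relative Grhl2, a regulator of Cdh1 and claudin genes in other epithelia, ranged from 8.09 to 8.26 (median 8.16) and from 7.32 to 8.02 (median 7.71). Grhl2 also fell without overlap, by 0.46 ± 0.10 (limma adjusted p = 0.00505). The Grhl3 decrease was the larger by 0.42 ± 0.08 within arrays (exact permutation p = 0.00433, adjusted p = 0.0113). Ovol1, a zinc-finger factor of epithelial differentiation, ranged from 6.06 to 6.82 (median 6.23) and from 5.42 to 6.06 (median 5.84). It fell by 0.50 ± 0.14 (limma adjusted p = 0.0153). Its top sham value, in replicate 2, stood apart, and without that array the change was -0.39 (adjusted p = 0.0225).

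Foxa1, a forkhead pioneer factor, and Gata3 are regulators of urothelial identity, and both fell without overlap. Foxa1 ranged from 10.26 to 10.58 in sham arrays (median 10.37) and from 9.85 to 10.17 in denervated arrays (median 10.00), a decrease of 0.40 ± 0.08 (limma adjusted p = 0.00208). Gata3 ranged from 10.86 to 11.04 (median 10.90) and from 10.17 to 10.74 (median 10.57), a decrease of 0.38 ± 0.09 (limma adjusted p = 0.00622). Tp63, the factor of basal and intermediate cells, ranged from 8.23 to 8.67 (median 8.49) and from 7.87 to 8.44 (median 8.06). Its groups overlapped, and it fell by 0.38 ± 0.11 (limma adjusted p = 0.0206).

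Of the 3 ETS and KLF factors, 1 fell, beside 16.9% of all genes. Ehf, an epithelial ETS factor, ranged from 9.70 to 10.00 in sham arrays (median 9.88) and from 8.97 to 9.83 in denervated arrays (median 9.43). It fell by 0.41 ± 0.13 (limma adjusted p = 0.0348), and the call was lost in 8 of the 12 fits that leave out an array (adjusted p of up to 0.0794) and held without sham replicate 4 or 6 or without denervated replicate 2 or 6. Elf3, an ETS factor of urothelial cytodifferentiation, had medians of 8.40 and 8.15 and overlapping ranges, and was not called (-0.23 ± 0.13, limma adjusted p = 0.226). The changes of Elf3 and Ehf differed by 0.18 ± 0.10 within arrays, which did not pass the permutation test (adjusted p = 0.155). Klf5, a Krüppel-like factor of proliferating and maturing epithelium, had medians of 10.29 and 10.14 and was not called (-0.21 ± 0.09, limma adjusted p = 0.0956).

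In a wider list of epithelial transcription factors and related regulators, 9 of 17 fell and 1 rose, beside 16.9% and 11.9% of all genes. The median change of the list was -0.31. The largest decreases were those of the ETS factor gene Elf5 (-0.78 ± 0.15, at a level below the array medians), of Grhl1 (-0.69 ± 0.11), the remaining grainyhead gene, of Shh (-0.62 ± 0.11), which encodes a secreted ligand of the urothelium, and of Pparg (-0.60 ± 0.10), a nuclear receptor of urothelial differentiation. Runx1 rose by 0.49 ± 0.11 (limma adjusted p = 0.00499), a gene that blood cells also express, and is named after its value was seen. Among 5 genes for factors that repress epithelial genes, Snai1 was higher (0.46 ± 0.15, limma adjusted p = 0.0351) and Zeb1 lower (-0.34 ± 0.09). Snai1 kept its call in 4 of the 12 fits that leave out an array (those without sham 3, sham 5, denervated 2 and denervated 6).

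The uroplakins and keratins give the state of urothelial RNA outside the 32 genes. All 5 uroplakins fell: Upk3b by 0.83 ± 0.21, Upk2 by 0.76 ± 0.07, Upk1b by 0.64 ± 0.09, Upk1a by 0.62 ± 0.08 and Upk3a by 0.49 ± 0.07. Upk3b is also a marker of mesothelium. Of 10 keratins, 5 fell, 1 rose and 4 were not called. Krt20, the keratin of mature umbrella cells, ran from 7.96 through 8.52 to 9.16 in sham arrays and from 6.12 through 6.82 to 7.13 in denervated arrays, and fell by 1.80 ± 0.20 (limma adjusted p = 9.23e-05). The simple-epithelium keratins Krt18 (-0.58 ± 0.09), Krt19 (-0.49 ± 0.08), Krt8 (-0.48 ± 0.11) and Krt7 (-0.44 ± 0.07) also fell. Krt14, a keratin of basal cells, ran from 5.82 through 6.41 to 7.48 in sham arrays and from 6.45 through 7.89 to 8.71 in denervated arrays, and rose by 1.35 ± 0.36 (limma adjusted p = 0.0135, and at most 0.0331 when any array was left out). Krt15, another basal keratin, was not called (-0.23 ± 0.09, limma adjusted p = 0.0775), nor were Krt17 (0.20), Krt4 (-0.21) and Krt13 (-0.11). Over the 115 genes of the wider lists outside the 32, 56 fell and 5 rose, beside 16.9% and 11.9% of all genes. These lists include uroplakins, keratins and the 5 genes for factors that repress epithelial genes. The number that rose was 10 without denervated replicate 2, and 3 when any of sham replicates 1, 2 and 4 or any of denervated replicates 3, 4 and 5 was left out.

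The 32 genes were also set against the 7 measured urothelial markers outside them (Upk1a, Upk1b, Upk2, Upk3a, Krt7, Krt13 and Krt20), by subtracting the mean of these markers on each array. Of these markers, 6 fell and Krt13 was not called (-0.11 ± 0.11, limma adjusted p = 0.491). The mean change of the 7 was -0.69, or -0.51 without Krt20, and that of the 32 genes was -0.40. Relative to the markers, 24 of the 32 were higher, 0 were lower and 8 were not called by limma. On this scale 93.3% of all genes were higher and 0.661% were lower, so the count of higher genes is not a result about the 32. The 8 not called were Cldn8 (-0.15), Epcam (0.07), Ppl (0.03), Evpl (0.05), Rab27b (-0.16), Psca (-0.18), Grhl3 (-0.18) and Ovol1 (0.19). With Upk1a, Upk1b, Upk2 and Upk3a alone as the reference, Cldn8 (-0.21, adjusted p = 0.0463) and Grhl3 (-0.25, adjusted p = 0.0187) were lower than the uroplakins by limma and 19 genes were higher, beside 0.93% and 91.2% of all genes. Psca (-0.25, limma adjusted p = 0.0575) and Rab27b (-0.23, limma adjusted p = 0.0533) had changes of similar size and did not pass. The threshold therefore does not set Cldn8 and Grhl3 apart from them. Relative to the 7 markers, Grhl3 was not called over all arrays (limma adjusted p = 0.0619). Among the fits that leave out an array, it was lower only without sham replicate 3 (adjusted p = 0.0402) and without denervated replicate 6 (0.0464). Most genes were called on both scales, so adjustment over all genes raises p-values near the threshold only a little. The lower calls of Cldn8 and Grhl3 on these scales are therefore weak.

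**Figure D3:**
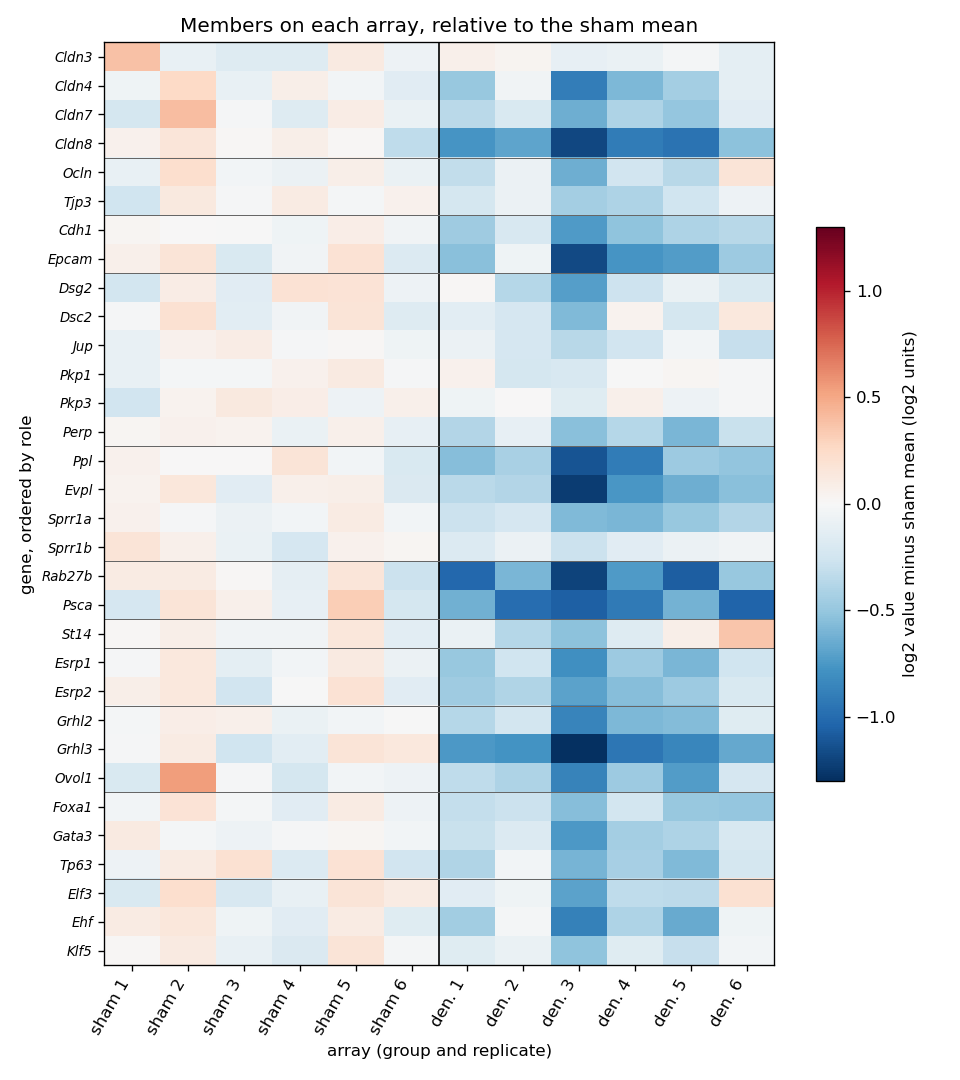
Value of each of the 32 measured genes on each of the 12 arrays minus that gene's sham mean, in log2 units (blue lower, red higher), with genes ordered by role. The column of denervated replicate 3 is the darkest. In the denervated columns the desmosome rows Pkp1 and Pkp3 and the row of Cldn3 are pale, whereas Cldn3 in sham replicate 1 (6.04) lies above its sham mean (5.66).

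The decrease was shared by the denervated arrays but not equal in them. Denervated replicate 3 was the lowest denervated array for 28 of the 32 genes, and replicates 6 and 2 were the highest for 14 and 10. The number of genes below their sham mean was 29, 30, 32, 30, 30 and 28 in denervated replicates 1 to 6, and 17, 4, 23, 24, 6 and 27 in sham replicates 1 to 6. Sham replicate 6 (27) was thus near denervated replicate 6 (28), and this count does not separate the groups. The mean over the 32 genes, relative to the sham mean, lay between -0.09 and 0.12 in sham arrays and between -0.71 (replicate 3) and -0.23 (replicate 6) in denervated arrays. Denervated replicate 2, which stood apart from its group over all genes, lay at -0.26, and 22 of the 32 genes were lower without it. The spread was larger in the denervated group for 25 of the 32 genes (78.1%, compared with 74.7% of all genes), with a median SD of 0.21 compared with 0.14 in sham arrays.

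**Figure D4:**
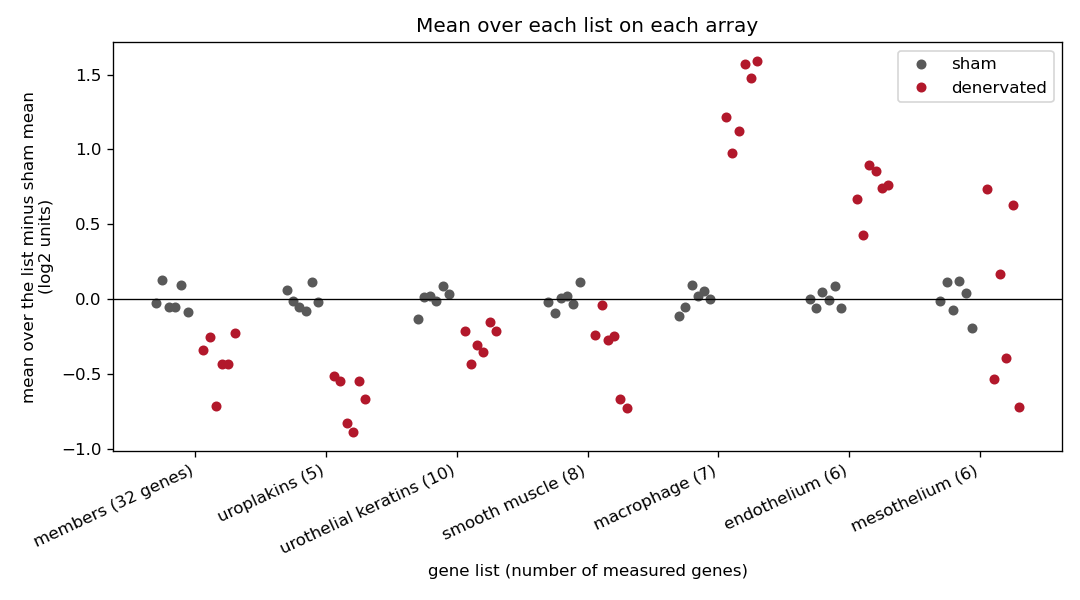
Mean over each gene list on each array, minus its sham mean, in log2 units, with grey points for sham and red points for denervated arrays. The denervated means of the 32 genes lie between -0.71 and -0.23 and those of the uroplakins, Upk3b included, between -0.89 and -0.51. The macrophage list lies between 0.98 and 1.59 and the mesothelium list on both sides of 0.

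The lists of other cells moved on these arrays too. In denervated arrays the mean over the macrophage list lay between 0.98 and 1.59, over the endothelial list between 0.43 and 0.89, over the fibroblast list between -0.03 and 0.80, over the smooth muscle list between -0.73 and -0.04, over the Schwann cell list between -1.73 and -0.61 and over the mesothelial list between -0.72 and 0.73. In sham arrays no mean over these lists was farther from 0 than 0.19. The mean over the uroplakins lay between -0.89 and -0.51 in denervated arrays and did not overlap the sham arrays. This mean includes Upk3b, also a marker of mesothelium, so its spread over arrays may not be that of urothelium alone. The share of urothelium in each sample was not measured here, and its part in the decreases of the 32 genes was not tested.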

How the data were processed

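Gene expression was measured on 12 Affymetrix arrays of rat bladder, 6 sham and 6 denervated. The log2 values are those the authors deposited. They were made by RMA in Affymetrix Expression Console 1.4.1.46, per the submitters' processing notes. Sources used here give no genome build for the array annotation, no scan dates and no batches. The number of arrays limits the precision.

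Of 36685 probe sets, 19086 were named, 575 with several genes and 18511 with 1 gene. Of the latter, 18394 matched RefSeq (GRCr8, used for names and promoters). Where a gene had several probe sets (291 genes), that of the highest mean was kept, leaving 18166 genes. Denervated and sham arrays were compared by limma's moderated test (limma 3.58.1, R 4.3.3, lmFit and eBayes, two-sided, Benjamini-Hochberg over all genes, threshold 0.05, no filter). Related genes were compared within arrays by an exact permutation test over samples. The fit was tested on simulated data. All measured genes of the list are named. All measured uroplakins and keratins are named, and from each other wider list up to 4 called genes with the largest change, with Rab8a and Runx1 added after their values were seen. The genes and lists were chosen with earlier results of these data known. Tried as alternatives were 11 other settings and leaving out each of the 12 arrays. After each gene's group mean was subtracted, same-numbered sham and denervated samples correlated between -0.112 and 0.101 over all genes. The numbers were therefore not taken to pair them.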

Additional observations from a re-analysis of the deposited data

Results flagged for a closer look

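Among the 64 groups of 6 arrays examined, 1 sham and 1 denervated group for each of the 32 measured genes, 2 held an array far from the others: the gap to its nearest neighbour, as a share of the range of the group, was above Dixon's 95% critical value. Chance alone gives such a gap in about 1 of 20 groups. For Cldn8, sham replicate 6 was low at 9.20, and the other sham arrays were at 9.55 to 9.69. Without it the change was -0.91 (limma adjusted p = 0.000277). For Ovol1, sham replicate 2 was high at 6.82, and the other sham arrays were at 6.06 to 6.27. Without it the change was -0.39 (limma adjusted p = 0.0225).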

How the results depend on the processing

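Over the 11 other settings, between 5 and 23 of the urothelial genes were lower, and 0 were higher in each. The lowest count came from the test against 1.2-fold (limma treat), which called 496 genes lower and 756 higher over all genes. It called 5 of the 32 genes lower, and 15 lower and 0 higher among the 115 genes of the wider lists. The number of these 115 that rose was 3 after a further quantile normalization, 8 with array weights and 3 over all probe sets. Leaving out 1 array at a time gave 18 to 22 of the 32 genes lower and 0 higher, 2543 to 3661 of all genes lower and 1831 to 2612 higher, 51 to 60 of the 115 lower and 3 to 10 higher, 5 to 7 of the 13 pairs called, and, relative to the 7 urothelial markers, 21 to 25 genes higher and 0 to 1 lower. With trend and robust settings 1 gene was lower relative to the markers (Grhl3), and with uroplakins alone 2 were. For Cldn3 the change ran from -0.072 (without sham replicate 4) to 0.036 (without sham replicate 1), which turned its sign. The exact rank-sum test lost 6 of the 22 calls and all probe sets lost 3. Of the 22 calls, 17 held when each array was left out, and 11 were lost under the 1.2-fold test alone. With the replicate block 20 genes were lower, without Tjp3 (adjusted p = 0.0671) and Jup (0.0937), and 2476 of all genes were lower and 1984 higher. The causes were not tested.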
